A study of Mus musculus with 6 samples.

Results

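Transcripts of 10 mitotic kinesins (Kif11, Kif15, Kif18b, Kif20a, Kif20b, Kif22, Kif23, Kif2c, Kif4 and Kifc1) were examined in mouse haematopoietic stem and progenitor cells. The 10 genes were taken by symbol from the 38926 symbols of the deposited table, all 10 were present, and all 10 were among the 11371 tested genes, those whose mean over the 6 libraries reached 1 FPKM. FPKM scales fragments by gene length and sequencing depth, so levels of different genes can be set beside each other roughly, as far as the lengths used hold. The cells were LSK cells, which lack lineage markers and carry Sca1 and cKit; this gate takes in stem cells as well as multipotent progenitors. They were sorted by FACS from femur and tibia marrow of untreated C57BL/6 mice aged 8 to 12 weeks. Of 6 libraries, 3 were labelled wild type (WT) and 3 were labelled as double knockouts of the dopamine receptor genes Drd2 and Drd3 (KO), and the comparison asks what differs in LSK cells when both receptors are targeted. The labels name no Cre or transgene and do not tie libraries to animals, so the p-values rest on the spread between these libraries, which may be technical.

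Kinesins are motor proteins that use ATP to move along microtubules or to take their ends apart. The mitotic members act in dividing cells. Some push spindle poles apart or hold them together, some carry chromosome arms, some shorten microtubules, and some build the midzone at which the daughter cells are cut apart. Their transcripts build up in G2 and M phase and are low in resting cells. Haematopoietic stem cells are mostly quiescent, while multipotent progenitors of the same gate divide more often.

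Recovered reads per library ran from 5243367 to 7143202. Pearson's r across the tested genes was 0.983 to 0.985 between WT libraries and 0.963 to 0.970 between KO libraries. Drd2 was listed at 0 in all 6 libraries. Drd3 was also at 0 in WT, but at 1.62, 3.08 and 3.04 FPKM in KO replicates 1 to 3, which goes against a loss of its transcript, so the groups are called by their labels throughout. An exchange of the labels WT and KO was not tested and would turn every direction given here. Xist, which coats the inactive X, reached 1.96 and 2.01 FPKM in KO replicates 1 and 3 and was at 0 in the other 4, whereas the Y-linked Ddx3y was at 0 in those 2 and at 12.5 to 15.1 FPKM in the other 4. Igkc, the immunoglobulin kappa constant region, was at 3182 and 1173 FPKM in the same 2 libraries, against 4.93 FPKM in KO replicate 2 and at most 2.48 FPKM in WT. Calls of the kinesins and of each gene list are therefore given below with and without these 2 libraries.

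All 10 mitotic kinesins had a lower mean in the libraries labelled KO, and 7 of the 10 fell (limma on log2(FPKM + 1), Benjamini-Hochberg adjusted p under 0.05 over all tested genes). Of all tested genes, 5.43% were called lower and 5.48% higher. The 7 were Kif11, Kif15, Kif18b, Kif20b, Kif22, Kif23 and Kif4. Kif20a, Kif2c and Kifc1 did not pass the test. None of the 10 rose by limma, at an unadjusted p under 0.05 or by voom on recovered reads. The share of all tested genes under that unadjusted threshold was not counted, here or for the lists below. The median log2 fold change of the 10 was -0.70, beside -0.002 over all tested genes. In 8 of the 10, every library labelled KO lay below every library labelled WT, a separation that 16.6% of all tested genes showed. The exceptions were Kif20a and Kif2c. In bulk RNA, fewer cells that express a gene and less RNA per cell cannot be told apart.

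**Figure D1:**
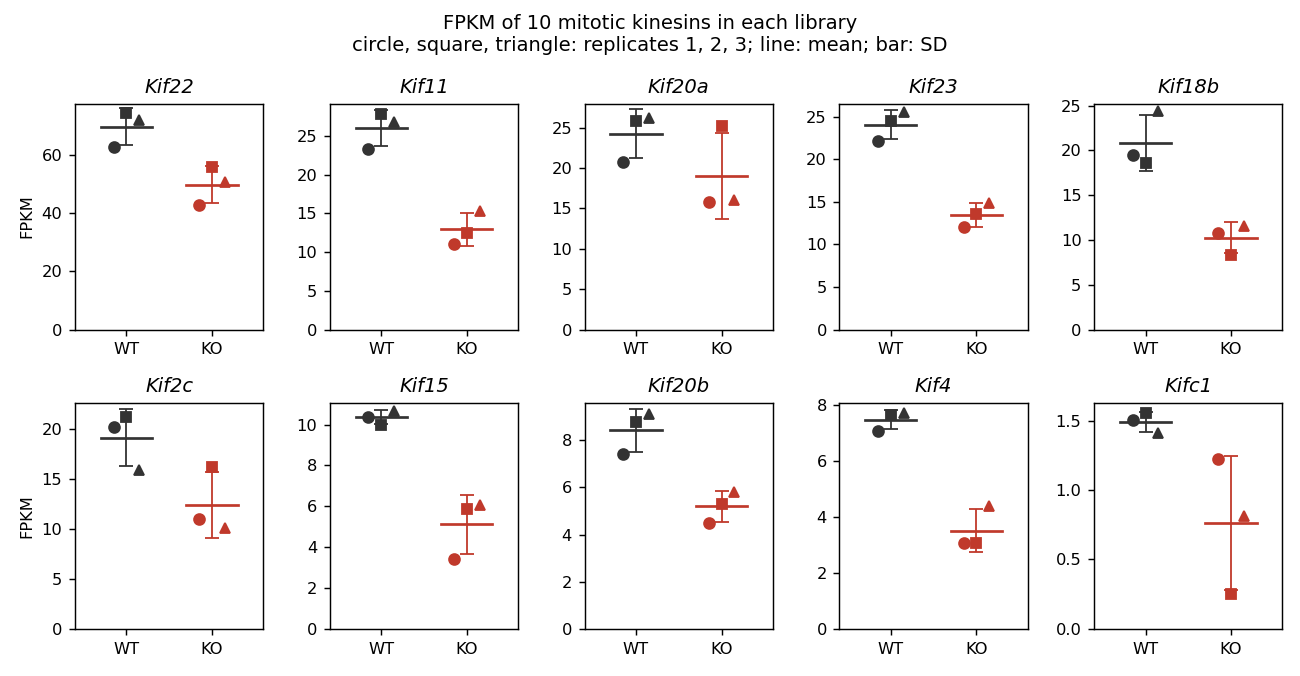
FPKM (vertical axis, starting at 0) of each mitotic kinesin in the 3 libraries labelled WT (dark) and the 3 labelled KO (red); circles, squares and triangles are replicates 1, 2 and 3, lines are means and bars are SDs. The groups overlap in Kif20a, where KO replicate 2 lies high, and in Kif2c, where KO replicate 2 (16.2 FPKM) lies just above WT replicate 3 (15.9 FPKM). They do not overlap in the other 8.

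Leaving out libraries changed which kinesins passed. Without KO replicates 1 and 3, the libraries with Xist, 4 passed (Kif11, Kif18b, Kif23 and Kif4), and the 1 library left in the group is then assumed to vary like those labelled WT. With a term for the Xist libraries 2 passed, Kif11 and Kif18b. Without WT replicate 1, 2 or 3 the count was 4, 3 and 4, beside 2.01%, 1.39% and 1.98% of all tested genes called lower. Without KO replicate 1, 2 or 3 it was 5, 8 and 7, beside 3.52%, 3.81% and 7.33%. The same shares belong beside the counts of the other lists below. Kif11 and Kif18b passed under each of the 15 alternatives that were run.

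The promoters of the members are shown because 9 of the 10 genes, all but Kif20a, have an entry in the RefSeq promoter table (build GRCm38.p6, 250 bases before to 50 after the gene start) and share a short motif. TTTGAA is the core of the cell cycle genes homology region, or CHR, an element of many G2 and M phase promoters that is bound by complexes containing the MuvB core. The motif was searched on both strands and reads TTCAAA where it lies on the strand opposite to the gene. It was in 9 of 9 of these promoters and in 17.9% of all 32851 promoters of the table. In 8 of the 9 a copy began within 30 bases of the gene start, as in 3.19% of all promoters, and in Kif2c the copy began at -103. The RefSeq start of Kif2c lies 3867 bases inside the span of the gene in GENCODE M21, whose longest transcript starts farther upstream, and 28 bases from the start of another transcript of Kif2c. The motif and the distance of 30 bases were chosen after the promoters had been seen, and a match is a description, not evidence of binding. Each line below gives 30 bases of the strand of the gene, 5′ to 3′, with the motif in capitals:

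Kif11: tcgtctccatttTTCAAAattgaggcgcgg

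Kif15: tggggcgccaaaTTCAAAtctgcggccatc

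Kifc1: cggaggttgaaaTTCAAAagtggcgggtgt

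Kif22: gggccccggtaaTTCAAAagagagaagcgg

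Kif4: ctctgggatcaaTTTGAAacttggcggtta

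Kif18b: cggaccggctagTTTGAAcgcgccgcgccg

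Kif2c: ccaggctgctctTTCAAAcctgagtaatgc

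Kif23: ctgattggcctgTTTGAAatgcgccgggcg

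Kif20b: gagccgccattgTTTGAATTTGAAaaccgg

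The motif lay on the gene's own strand in Kif4, Kif18b, Kif23 and Kif20b and on the opposite strand in the other 5, and Kif20b carried 2 copies end to end. In build GRCm38.p6 the windows are chr19:37376351-37376380 (Kif11, plus strand), chr9:122951050-122951079 (Kif15, plus) and chr17:33890615-33890644 (Kifc1, minus). Those of the chromosome arm motors are chr7:127042420-127042449 (Kif22, minus) and chrX:100626072-100626101 (Kif4, plus). The window of Kif18b is chr11:102925104-102925133 (minus) and that of Kif2c is chr4:117178858-117178887 (minus). Those of Kif23 and Kif20b are chr9:61946780-61946809 (minus) and chr19:34922353-34922382 (plus). The windows of Kif15, Kifc1, Kif22 and Kif4 lie wholly in an exon of the gene in GENCODE M21, those of Kif18b and Kif20b in part, and those of Kif11, Kif23 and Kif2c in none, that of Kif2c being within the span of the gene. A CCAAT box, the sequence bound by NF-Y, was in 6 of the 9 promoters and in 37.4% of all promoters. The 60 bases upstream of the Kif11 start, chr19:37376322-37376381 on the plus strand, hold both elements, each on the opposite strand, with the CCAAT box reading ATTGG:

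Kif11 upstream: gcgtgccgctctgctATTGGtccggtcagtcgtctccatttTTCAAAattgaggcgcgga

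**Figure D2:**
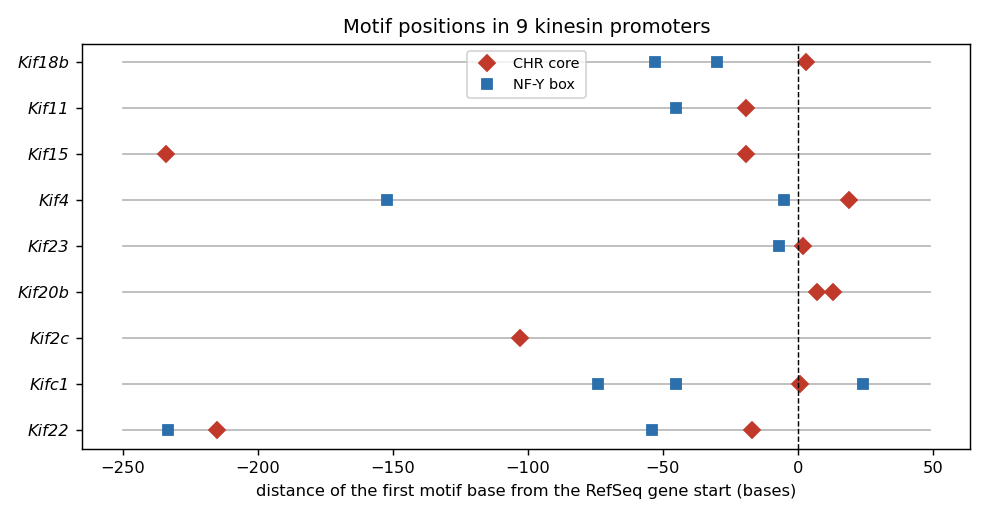
Distance in bases from the RefSeq gene start (horizontal axis, negative upstream) of each copy of TTTGAA (red diamonds, CHR core) and CCAAT (blue squares, NF-Y box), on either strand, in the 300-base promoter windows (grey lines) of 9 mitotic kinesins. A diamond lies within 30 bases of the start in 8 of the 9 genes, and in Kif2c it lies at -103 from a RefSeq start inside the GENCODE gene span. The RefSeq start of Kif4 lies 328 bases from the nearest GENCODE transcript start.

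The motors that set up the bipolar spindle were Kif11, Kif15 and Kifc1. Kif11 (Eg5) is the tetrameric motor that slides microtubules of opposite poles apart. It was at 23.4, 27.8 and 26.8 FPKM in WT replicates 1 to 3 and at 11.1, 12.5 and 15.3 FPKM in KO replicates 1 to 3. The lowest WT library thus stood above the highest KO library, and the mean fell by 50.1%, from 26.0 ± 2.33 to 12.96 ± 2.11 FPKM (SD, n = 3 per group here and below). The log2 fold change was -0.96 ± 0.14 (SE; limma adjusted p = 0.00418). Kif15, the kinesin-12 motor that can keep spindles bipolar alongside Kif11, was at 10.4, 9.99 and 10.7 FPKM in WT and at 3.43, 5.86 and 6.05 FPKM in KO. Its WT libraries were close together and KO replicate 1 was the lowest of all. Kif15 fell by 50.6%, with a log2 fold change of -0.92 ± 0.19 (limma adjusted p = 0.0175). The call of Kif15 was lost without WT replicate 1, 2 or 3 (adjusted p = 0.0649, 0.0706 and 0.0691) and without the 2 KO libraries with Xist (adjusted p = 0.0645; 0.00473 to 0.175 over all 15 alternatives).

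Kifc1 (HSET) is the minus-end motor that crosslinks spindle microtubules and gathers them at the poles, and it was the lowest of the 10. It was at 1.504, 1.55 and 1.41 FPKM in WT and at 1.22, 0.255 and 0.811 FPKM in KO. These values rest on 32, 31 and 30 recovered reads in WT and on 30, 6 and 15 in KO. The exact Poisson 95% interval of KO replicate 2, 0.0935 to 0.555 FPKM, lay below those of the WT libraries, the lowest of which began at 0.951 FPKM, while that of KO replicate 1 reached 1.74 FPKM; such intervals cover counting error only. The log2 fold change of -0.54 ± 0.26 did not pass the test (95% interval -1.11 to 0.04; limma adjusted p = 0.211), and none of the 14 alternatives that tested it called it. Of the 50-base stretches of Kifc1 exons, 39.7% also occur in other genes, 38.6% in the near-identical Kifc5b alone, so reads could be split between the pair. Kifc5b itself was at 0.0528 to 0.702 FPKM over the 6 libraries and was not tested.

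Kif22 and Kif4 are chromokinesins, motors that bind chromatin and push chromosome arms towards the middle of the spindle. Kif22 (Kid) was the most abundant mitotic kinesin in every library, at 62.8, 74.6 and 72.2 FPKM in WT and 43.0, 55.8 and 50.8 FPKM in KO. The groups did not overlap, and the lowest WT library stood above the highest KO library by about the SD of either group. Kif22 fell by 28.6%, the smallest of the 7 falls, with a log2 fold change of -0.48 ± 0.12 (limma adjusted p = 0.0353). It missed the threshold without any 1 of the WT libraries (adjusted p = 0.0572, 0.146 and 0.118 without replicates 1, 2 and 3), without KO replicate 1 (adjusted p = 0.0911) and without the 2 KO libraries with Xist (adjusted p = 0.191; 0.0189 to 0.291 over all alternatives).

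Kif4, which also joins Prc1 at the midzone and acts with condensin in chromosome compaction, lies on the X chromosome. It was at 7.09, 7.64 and 7.72 FPKM in WT and at 3.07, 3.07 and 4.41 FPKM in KO. KO replicates 1 and 2, which differ in Xist, had the same value to 3 digits, while KO replicate 3, with Xist, was higher. The fall of 53.0% was the largest of the 10 as a share of the WT mean, with a log2 fold change of -0.92 ± 0.17 (limma adjusted p = 0.0107). Without WT replicate 2 the adjusted p was 0.0586 (0.00250 to 0.0586 over all alternatives). The call of Kif4 was also lost with the term for the Xist libraries. Exons of Kif4 overlap those of Pdzd11 on the other strand by 832 bases, and the kit does not mark strand. Pdzd11 was at 21.4 ± 1.30 FPKM in WT and 22.1 ± 4.03 FPKM in KO and did not pass the test (log2 fold change 0.03 ± 0.14, limma adjusted p = 0.909).

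Kif18b and Kif2c shorten microtubules. Kif18b tracks growing ends and acts with Kif2c on astral microtubules. It was at 19.5, 18.6 and 24.4 FPKM in WT and at 10.8, 8.30 and 11.6 FPKM in KO. Its lowest library was KO replicate 2, unlike Kif11, Kif15, Kif20b, Kif22 and Kif23, which were lowest in KO replicate 1. Kif18b fell by 50.9%, with a log2 fold change of -0.96 ± 0.16 (limma adjusted p = 0.00696). Kif2c (MCAK), the kinesin-13 depolymerase that frees wrongly attached kinetochores, was at 20.2, 21.2 and 15.9 FPKM in WT and at 11.0, 16.2 and 10.1 FPKM in KO. KO replicate 2 stood just above WT replicate 3, so the groups overlapped. The log2 fold change of -0.60 ± 0.18 did not pass the test (95% interval -1.02 to -0.19; limma adjusted p = 0.0680). Without KO replicate 2, Kif2c passed at an adjusted p of 0.0240, and it also passed with voom on recovered reads (0.0336) and where genes under a mean of 5 FPKM were left out (0.0467; 0.0240 to 0.561 over all alternatives).

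Kif23, Kif20a and Kif20b act at the midzone and in cytokinesis. Kif23 (MKLP1) forms centralspindlin with Racgap1. It was at 22.2, 24.5 and 25.6 FPKM in WT and at 12.0, 13.5 and 14.9 FPKM in KO, with the narrowest relative spread of the 7 called members in KO. Kif23 fell by 44.1%, with a log2 fold change of -0.80 ± 0.12 (limma adjusted p = 0.00515), and 14 of the 15 alternatives called it. Kif20b, a plus-end motor of late cytokinesis, was at 7.40, 8.77 and 9.12 FPKM in WT and at 4.51, 5.31 and 5.80 FPKM in KO, with no overlap. Kif20b fell by 38.3%, with a log2 fold change of -0.60 ± 0.15 (limma adjusted p = 0.0358). The call of Kif20b was lost under 9 of the 15 alternatives, among them each library left out except KO replicate 3 (adjusted p = 0.0649 to 0.140 for these 5), and also without the 2 KO libraries with Xist (0.139; 0.0154 to 0.190 over all alternatives). Kif23 and Kif15 lie on the chromosome of Drd2, at 12.5 and 73.5 Mb from it.

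Kif20a (MKLP2), the motor that brings the chromosomal passenger complex to the midzone, was at 20.8, 25.8 and 26.2 FPKM in WT and at 15.8, 25.2 and 16.0 FPKM in KO. KO replicate 2 lay within the WT range, and KO replicates 1 and 3 lay below every WT library. The log2 fold change of -0.36 ± 0.18 did not pass the test (95% interval -0.77 to 0.05; limma adjusted p = 0.237). Without KO replicate 2 Kif20a passed at -0.57 (adjusted p = 0.0449), and without KO replicates 1 and 3 the direction turned, to 0.06 (adjusted p = 0.851; 0.0449 to 0.878 over all alternatives). Exons of Kif20a overlap those of Cdc23 on the other strand by 1271 bases, and 25.2% of its 50-base stretches also belong to Cdc23. Cdc23 was at 17.0 ± 0.852 FPKM in WT and at 20.2 ± 0.843 FPKM in KO and did not pass the test (log2 fold change 0.24 ± 0.11, limma adjusted p = 0.181).

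**Figure D3:**
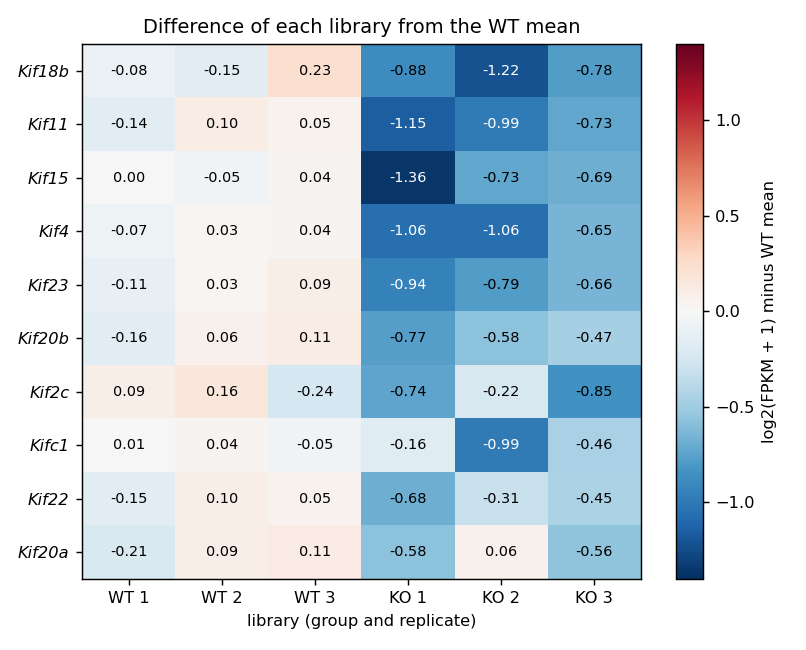
Difference of each library (columns, group and replicate) from the WT mean of log2(FPKM + 1) for each mitotic kinesin (rows), blue below and red above the WT mean, with the value printed in each cell. KO replicate 2 holds the lowest value of Kif18b (-1.22) and Kifc1 (-0.99) and the single KO value above the WT mean, that of Kif20a (0.06).

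Library by library, the median difference of the 10 kinesins from the WT mean of log2(FPKM + 1) was -0.82, -0.76 and -0.65 in KO replicates 1 to 3 and -0.10, 0.05 and 0.05 in WT replicates 1 to 3. All 10 lay below every WT library in KO replicates 1 and 3, and 8 of 10 did in KO replicate 2. The share of all tested genes that did so in each library was not counted. Of 10 S phase genes described below, 10, 9 and 10 did so in KO replicates 1 to 3. Of 19 spindle and midzone partners 19, 17 and 19 did, of 11 tubulins 2, 5 and 7, and of 9 motors outside mitosis 3, 4 and 2. The median of the members was thus low in each KO library, while Kif20a and Kif2c were not below every WT library in KO replicate 2. That library is the only one labelled KO without Xist, so differences that go with Xist and with the label cannot be fully told apart.

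The order of the levels was much the same in all libraries. Between genes it also depends on the gene lengths used, and for Kif20a, Kif4 and Kifc1 on reads that other genes may share. Kif22 ranked first of the 10, Kif4 the ninth and Kifc1 the tenth in every library. In WT, Kif22 (mean 69.9 FPKM) stood apart from Kif11, Kif20a, Kif23, Kif18b and Kif2c (means 26.0, 24.3, 24.1, 20.9 and 19.1 FPKM), each of which overlapped the next in its range over libraries. Kif2c and Kif15, Kif15 and Kif20b, and Kif4 and Kifc1 did not overlap, while Kif20b (8.43 FPKM) and Kif4 (7.48 FPKM) did. Kif11 ranked 2 in all 3 WT libraries and 4, 5 and 3 in KO replicates 1 to 3, whereas Kif20a ranked 2 in each library labelled KO. Relative to Kif11, Kif4 had a log2 ratio of FPKM + 1 of -1.74 to -1.57 over all 6 libraries. The added 1 draws this ratio towards 0, more so at low levels. The log2 ratio of FPKM + 1 of Kif22 to Kif11 was 1.389, 1.391 and 1.397 in WT and 1.86, 2.07 and 1.67 in KO. That of Kif20a to Kif11 was -0.16, -0.10 and -0.03 in WT and 0.48, 0.95 and 0.07 in KO. These ratios are descriptions and were not tested.

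Other motors of mitosis were at most at 4.94 FPKM. Of 6 further mitotic kinesins, 3 were tested and none passed limma's adjusted threshold; at an unadjusted p under 0.05, 1 was lower (Cenpe) and 1 higher (Kif2a), and voom called Kif2a higher. Kif18a, a motor that limits chromosome oscillation, was at 3.67, 3.02 and 2.96 FPKM in WT and 1.61, 3.21 and 1.91 FPKM in KO (log2 fold change -0.41 ± 0.22, limma adjusted p = 0.269). Its KO replicate 2 again lay within the WT range, as in Kif20a, and without KO replicates 1 and 3 the log2 fold change was 0.001. Cenpe, the kinetochore motor, was at 2.95, 4.63 and 4.94 FPKM in WT and 3.16, 2.83 and 1.84 FPKM in KO (log2 fold change -0.52 ± 0.23, limma adjusted p = 0.177). Kif2a, a depolymerase that also acts outside mitosis, was at 2.30, 2.11 and 2.11 FPKM in WT and at 3.70, 2.98 and 3.79 FPKM in KO, with no overlap. Its log2 fold change of 0.50 ± 0.17 was positive and did not pass the test (limma adjusted p = 0.1001). Kif14 was at 0.330 to 0.798 FPKM over the 6 libraries, Kif2b was listed at 0 in all, and neither they nor Kifc5b were tested.

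Of 26 kinesins that carry cargo or serve cilia, 9 were tested, 4 were listed at 0 in every library and none passed limma's adjusted threshold in either direction. At an unadjusted p under 0.05, 1 was lower, Kif17, which voom also called. Their median log2 fold change was -0.12, and without KO replicates 1 and 3 it was -0.44 with none called. Kif17 was at 5.56, 5.96 and 6.01 FPKM in WT and at 4.23, 3.82 and 3.18 FPKM in KO, with no overlap. Its mean was 35.9% lower, more than the 28.6% of Kif22. The log2 fold change of -0.53 ± 0.16 did not pass the test (limma adjusted p = 0.0603). Kif5b, the ubiquitous kinesin-1 heavy chain, was at 19.3, 17.2 and 17.9 FPKM in WT and at 14.9, 20.4 and 20.0 FPKM in KO, a level near that of Kif2c in WT. Its log2 fold change was 0.01 ± 0.14, and its sign turned under 5 alternatives. Kif7, a regulator of Hedgehog signalling in cilia, had a log2 fold change of 0.01 ± 0.26, and its sign turned under 3. The difference between the mitotic kinesins and these motors was not tested. TTTGAA within 30 bases of the start was found in 1 of the 19 of these motors with a promoter entry.

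**Figure D4:**
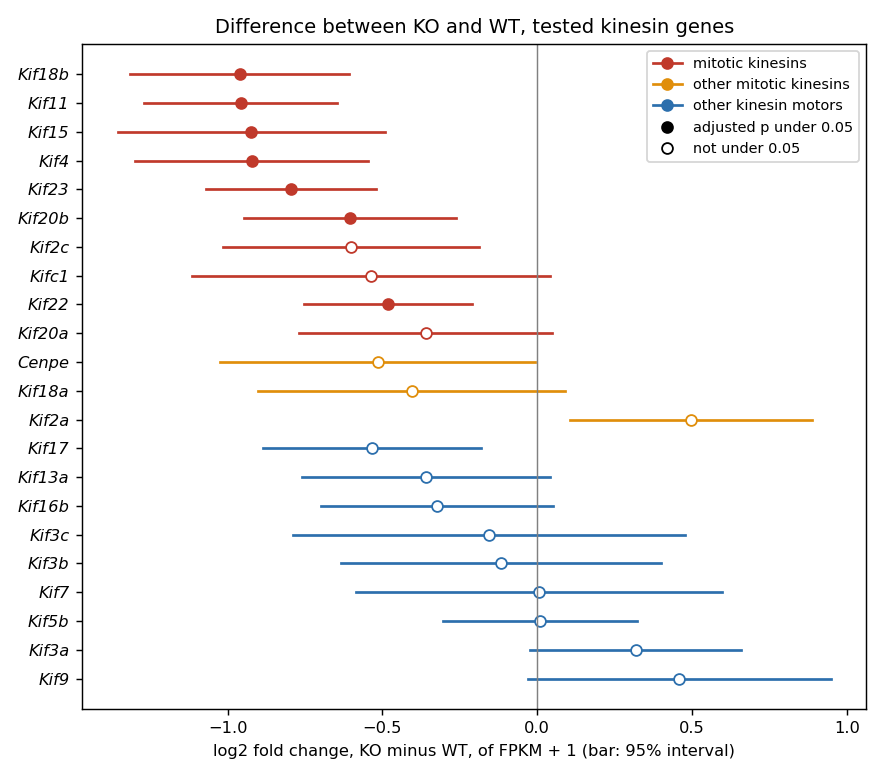
Log2 fold change (horizontal axis, KO minus WT, of FPKM + 1) with its 95% interval for all tested kinesin genes: the 10 mitotic kinesins (red), 3 other mitotic kinesins (orange) and 9 other motors (blue); filled points passed the test at an adjusted p under 0.05. All 10 red points lie left of 0 and 7 are filled, while no orange or blue point is filled; the sign of Kif20a and Kif18a turned without the KO libraries with Xist, that of Kif3b without KO replicate 2, that of Kif3c without WT replicate 1, and that of Kif5b and Kif7 under 5 and 3 settings.

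Most genes of proteins that work with these motors were also lower. Of 19 spindle and midzone partners, all 19 were tested, 13 fell and none rose, with a median log2 fold change of -0.56. The count was 1 without KO replicates 1 and 3, 0 with the term for the Xist libraries, 8, 2 and 3 without WT replicates 1 to 3, and 7 without KO replicate 1. Ect2, the activator of RhoA that centralspindlin recruits, fell from 17.3 ± 1.17 to 8.98 ± 1.33 FPKM (log2 fold change -0.88 ± 0.14, limma adjusted p = 0.00531). Incenp, the scaffold of the chromosomal passenger complex, fell from 37.4 ± 3.52 to 22.2 ± 2.02 FPKM, a log2 fold change of -0.73 ± 0.12. Hmmr, a microtubule-binding protein of spindle poles, and Anln, the anillin of the cleavage furrow, had log2 fold changes of -0.78 ± 0.14 and -0.88 ± 0.16. The smallest changes were those of the kinase gene Plk1 (-0.14 ± 0.15, limma adjusted p = 0.594) and of Mapre1, the EB1 plus-end tracker (-0.18 ± 0.09, limma adjusted p = 0.250). TTTGAA began within 30 bases of the start in 9 of the 16 partners with a promoter entry.

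Tubulins, the track on which the motors run, moved in both directions. Of 14 tubulin genes 11 were tested, 2 fell and 1 rose, with a median log2 fold change of -0.08. Tuba1b fell from 625 ± 34.9 to 454 ± 55.9 FPKM and Tuba1c from 33.1 ± 2.35 to 21.8 ± 1.16 FPKM (log2 fold changes -0.47 ± 0.11 and -0.58 ± 0.10). Tubb2a rose from 6.66 ± 0.701 to 9.90 ± 0.823 FPKM (0.51 ± 0.14). Of 15 alternatives 7 called Tuba1b, 13 Tuba1c and 4 Tubb2a. The count called lower was 1 without any 1 WT library and without KO replicate 1. Without KO replicates 1 and 3 none of Tuba1b, Tuba1c and Tubb2a was called, and the median log2 fold change was -0.07. In KO replicate 2 Tuba1a was at 21.4 FPKM, against 41.2 to 43.9 FPKM in WT. Over all libraries Tuba1a did not pass (limma adjusted p = 0.362). Tubulin genes are alike in sequence, and reads may be shared between them. Tuba4a and Tubb4b had the smallest changes, -0.08 ± 0.09 and 0.06 ± 0.11.

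Among 15 regulators of cell cycle transcription, 4 fell and 1 rose, with a median log2 fold change of -0.25. The count called lower was 2, 1 and 1 without WT replicates 1 to 3, 2 without KO replicate 1, and 1, with 0 called higher, without KO replicates 1 and 3. Foxm1, a forkhead activator of G2 and M phase genes, was at 7.28, 7.38 and 8.21 FPKM in WT and at 3.71, 3.13 and 3.32 FPKM in KO. The groups stood far apart, with a log2 fold change of -0.98 ± 0.15 (limma adjusted p = 0.00481), and all 15 alternatives called it. Mybl2, the B-Myb subunit that joins MuvB for activation, fell from 15.4 ± 1.52 to 8.57 ± 1.69 FPKM (-0.78 ± 0.16), and E2f1, an activator of the G1 to S transition, fell from 25.2 ± 0.606 to 16.6 ± 2.55 FPKM (-0.58 ± 0.13). Lin52, a subunit of the MuvB core, rose from 12.4 ± 0.774 to 17.0 ± 0.235 FPKM (0.43 ± 0.11). Of 15 alternatives 11 called Mybl2, 8 E2f1 and 4 Lin52. E2f4 and the NF-Y subunit gene Nfyc had the smallest changes, 0.13 ± 0.15 and 0.11 ± 0.11, and neither passed the test. TTTGAA began within 30 bases of the start in 0 of the 12 with a promoter entry.

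Reference genes of the cell cycle place the kinesins. Among the 10 genes of G2 and M phase, 7 were called lower and 0 higher, with a median log2 fold change of -0.60, and 1 passed without KO replicates 1 and 3, 2, 1 and 1 without WT replicates 1 to 3, and 3 without KO replicate 1. Topoisomerase Top2a and the proliferation marker Mki67 had log2 fold changes of -1.04 ± 0.12 and -1.10 ± 0.26, Ccna2 and Cdc20 of -0.62 ± 0.14 and -0.44 ± 0.10, and the cyclin B genes Ccnb1 and Ccnb2, which did not pass, of -0.28 ± 0.15 and -0.43 ± 0.13. Among the 10 genes of S phase, 3 were called lower and 0 higher, with a median of -0.43. The helicase genes Mcm4, Mcm5 and Mcm6 were the 3 that fell (log2 fold changes -0.44 ± 0.11, -0.44 ± 0.10 and -0.40 ± 0.10), while Mcm2 (-0.32 ± 0.11) and Cdc6 (-0.31 ± 0.13) did not pass; no S phase gene was called lower by limma without KO replicates 1 and 3, without any 1 WT library or without KO replicate 1, though all 10 were lower at an unadjusted p under 0.05 over all libraries, and 6 were called without KO replicate 2. How many of all tested genes were under that unadjusted threshold was not counted. TTTGAA began within 30 bases of the start in 6 of 9 G2 and M phase genes and in 0 of 8 S phase genes with a promoter entry. Differences between the lists were not tested.

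**Figure D5:**
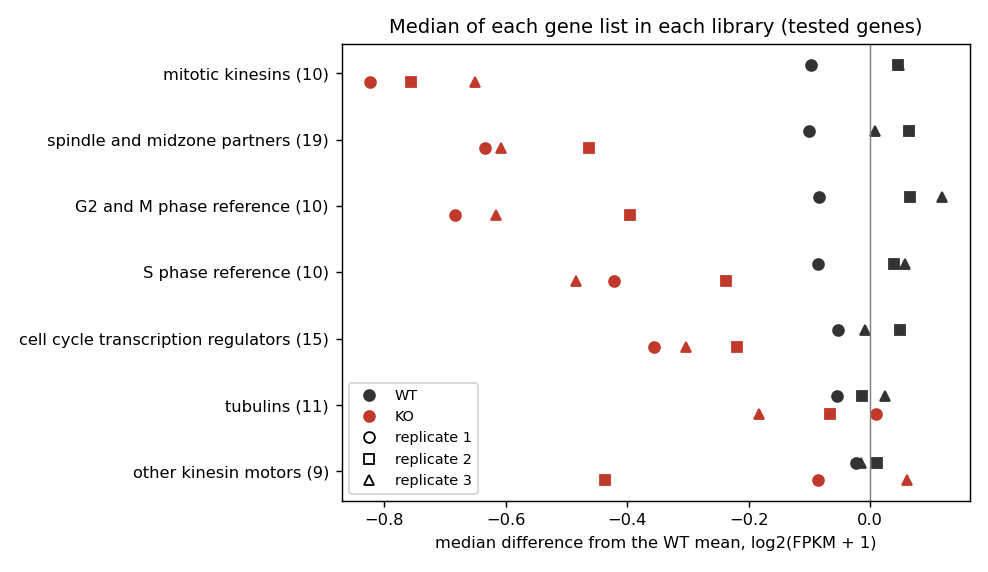
Median difference from the WT mean of log2(FPKM + 1) (horizontal axis) over the tested genes of each list (rows, number of genes in brackets) in each library; dark symbols are WT, red symbols KO, and circles, squares and triangles replicates 1, 2 and 3. The mitotic kinesins lie at -0.82, -0.76 and -0.65 in the KO libraries, and the tubulins and other motors have red and dark symbols that overlap; WT replicates 2 and 3 of the mitotic kinesins cover each other.

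The genes most like the mitotic kinesins over the 6 libraries were found by Pearson's r with the mean of their standardised log2(FPKM + 1). The 8 highest were Top2a, the chromatin remodeller Hells, the Ran regulator Rangap1, Cbx3 (HP1 gamma), Satb1, a chromatin organiser of lymphoid cells, Dntt, the terminal transferase of lymphoid precursors, Smarca4, the ATPase of SWI/SNF, and Rps4y2. Their r ran from 0.997 for Top2a to 0.991 for Rps4y2. These points share their libraries and the difference between the groups, so r is a description. Satb1 was at 17.4, 21.3 and 18.1 FPKM in WT and 4.68, 7.46 and 6.99 FPKM in KO, and Dntt at 304, 348 and 329 FPKM in WT and 66.0, 117 and 103 FPKM in KO. Both were lowest in KO replicate 1, as Kif11 and Kif23 were. Among the members, r with the mean of the other 9 was 0.993 for Kif23 and 0.985 for Kif11, and it was lowest for Kif2c (0.742), Kif20a (0.637) and Kifc1 (0.564).

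Some markers of the gate and of other cell types differed between the groups, and their part in the kinesin values was not tested. Of 7 LSK genes, Cd34 and Flt3 fell and the stem cell markers Slamf1 and Procr rose. Kit (82.5 to 150 FPKM) and Ly6a, which encodes Sca1 (110 to 161 FPKM), were present in every library and did not pass. Mean Cd48 was 173 FPKM in WT and 180 FPKM in KO, and it did not pass either (log2 fold change 0.05 ± 0.16, limma adjusted p = 0.878). The summed FPKM of 7 erythroid markers was 448 to 707 in WT and 965 to 2099 in KO, and 4 of the 7 rose. Hba-a1, Hba-a2 and Car1 made up most of each sum. Neither Hba-a1 nor Hba-a2 passed (limma adjusted p = 0.0578 and 0.0572), nor did Tfrc, with a negative log2 fold change (-0.30 ± 0.19). The summed FPKM of B and plasma cell markers was 46.4 to 60.6 in WT and 54.9 to 3281 in KO (0 of 5 tested passed). It was high only in KO replicates 1 and 3, through Igkc (3182 and 1173 FPKM) and Igj (39.8 and 33.8 FPKM). Mean Cd79b was 36.7 FPKM in WT and 37.3 FPKM in KO, and mean Sdc1 14.1 and 11.0 FPKM. Cd79a was at 3.90, 3.87 and 1.39 FPKM in KO replicates 1 to 3. Sums of mast cell markers were 44.8 to 69.5 and 59.1 to 126 (2 of 5 rose). Cpa3, the largest part of each, did not pass the test. For neutrophil markers the sums were 696 to 714 and 446 to 1109 (0 of 7 passed), the KO values lying on both sides of WT. Mpo made up most of them, at 448 to 568 FPKM in WT and 918, 702 and 384 FPKM in KO replicates 1 to 3. The other 6 tested had negative log2 fold changes. Among them Ngp was at 22.1 to 43.7 FPKM in WT and at 37.2, 0.713 and 4.09 FPKM in KO. Sums of macrophage and dendritic markers were 27.8 to 35.0 and 20.2 to 31.0 (1 of 3 fell). T and NK cell markers summed to 1.72 to 2.53 in WT and 1.17 to 1.36 in KO, with Cd3g and Ncr1 listed at 0 in all libraries, and endothelial and stromal markers to 20.5 to 30 and 16.5 to 19.0 (1 of 3 fell). Without KO replicates 1 and 3, the same 4 LSK genes were called, 3 of 7 erythroid and 2 of 5 mast cell markers were called higher, 4 of 7 neutrophil markers were called lower, and no marker of the other 4 types was called.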

How the data were processed

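RNA of 6 LSK libraries, 3 labelled WT and 3 labelled KO, was made into cDNA with SMART-Seq v4 and into libraries with Nextera XT, per the labels' protocols; these kits keep no strand information. The authors deposited FPKM values, scaled by gene length and depth. The submitters' processing notes name build mm10 and the tools TopHat2 2.1.1, bcl2fastq 2.19.1.403, DESeq2 1.18.1 and HTSeq 0.6.1, with no roles; the gene annotation is not given in these sources. In 17183 of the 17183 genes seen in at least 2 libraries, FPKM ratios between libraries were ratios of whole numbers (relative tolerance 1e-11), and whole reads were recovered from them. They are lower bounds where the implied gene length differs from GENCODE M21, as in 7 of the 10 kinesins.

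KO was compared with WT in limma 3.58.1 (R 4.3.3; lmFit, eBayes with trend, two-sided) on log2(FPKM + 1), for the 11371 genes whose mean reached 1 FPKM. Calls were made at a Benjamini-Hochberg adjusted p under 0.05. The pseudocount shrinks the fold changes of low genes. The fit was tested on simulated data. Alternatives were a pseudocount of 0.1, no filter, a mean of at least 5 FPKM, equal FPKM sums, array weights, voom on recovered reads, a replicate block, a term for the libraries with Xist, leaving these out, and leaving out each library. Positions are those of GENCODE M21 (GRCm38) and promoters those of RefSeq.

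The members and lists were chosen with earlier results of these data known. Of each list that is neither the members nor markers, up to 4 called genes by smallest p and the 2 of smallest change were named, with all other mitotic kinesins, the 8 most alike genes, near-identical or overlapping genes, the targeted and sex-linked genes, and markers needed to describe a library. Plots used Python 3.11.15 with matplotlib 3.10.9.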

Additional observations from a re-analysis of the deposited data

How the results depend on the processing

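Under 15 alternatives, 2 of 149 member fold changes turned in sign, both of Kif20a. As reported, 1240 genes were called and 7 of the 10 kinesins were called lower in KO. Without a filter on low values the counts were 588 genes and 4 kinesins, with the term for the Xist libraries 373 and 2, and without these libraries 514 and 4. Leaving out each library gave 370 to 1598 genes and 3 to 8 kinesins, with the fewest in both without WT replicate 2. Voom on recovered reads called 1585 genes and 8 kinesins, array weights 1628 and 7, and a threshold of 0.1, chosen after seeing the data, 8 kinesins. Kif20a and Kif18a turned to 0.0576 and 0.00137 both with the Xist term and without the Xist libraries, and Plk1 to 0.117. Kif5b turned to -0.0108 with array weights and to -0.00041 with voom, and ran from -0.067 to 0.147 as each library was left out. Kif7 turned to -0.0041 with equal FPKM sums, and ran from -0.17 to 0.155 as each library was left out. E2f4 ran from -0.0485 to 0.22 and Tubb4b from -0.0278 to 0.124. The cause was not tested.

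No pairing by replicate number was seen: deviations of same-numbered libraries correlated at -0.12 to 0.05, and 0 of 3 numbers were best matched. With 3 libraries per group these values cannot show that the samples are unpaired. With the replicate block 805 genes and 7 kinesins were called, Kif2c in place of Kif20b. Depth limits Kifc1 most, with 6 to 32 recovered reads per library.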
